A study of Mus musculus with 12 samples.

Results

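The 9 microglial mRNAs studied were Cx3cr1, P2ry12, Csf1r, Tmem119, Trem2, Aif1, C1qa, C1qb and C1qc. They were followed in pulldowns aimed at the ribosome-bound RNA of hippocampal CA1 pyramidal neurons. The rows used were those of the deposited table of 24079 genes that carry these symbols. Each symbol matched 1 row, and all 9 were among the 17823 genes that had at least 15 reads summed over the 12 libraries. The libraries came from male mice aged 2 to 6 months on the C57BL/6J background that carried the Wfs1-CreERT2 transgene and the RiboTag allele, in which tamoxifen, given on 3 days and followed by 1 week of waiting, switches on HA-tagged Rpl22, a ribosomal protein, in Wfs1-expressing neurons. Both genotypes shared these alleles and the treatment, and they differed in Fmr1, which was intact in 6 wild-type libraries and knocked out in 6 Fmr1-/y libraries. Each library was made from the pooled hippocampi of 4 to 6 mice, so that the spread between libraries is that between pools. The HA tag was pulled down from the whole hippocampus, where the remaining cells, microglia included, were still present, and no input or mock pulldown was used here. In the paper, HA staining was absent from Iba1-positive microglia, and by qRT-PCR Aif1 was lower in the pulldown than in the input. Ratios between neuronal and microglial mRNAs given below thus describe the pulldown, not the tissue.

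Microglia are the resident macrophages of the brain parenchyma. They survey synapses with motile processes, depend on signals through the receptor Csf1r for their survival, and in the hippocampus take part in the removal of synapses that the complement protein C1q has tagged. Cx3cr1 is the receptor of the neuronal chemokine fractalkine, P2ry12 the ADP receptor that guides processes towards injury, Tmem119 a surface protein that sets microglia apart from other macrophages, Trem2 a lipid-sensing receptor that signals through the adaptor Tyrobp, and Aif1 (Iba1) an actin-binding protein used to stain microglia. C1qa, C1qb and C1qc encode the chains that together form C1q.

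Depth was 39400980 to 55745464 reads on genes in wild-type libraries and 43106629 to 65565479 in Fmr1-/y libraries. As a check of the genotype, Fmr1 counts ran from 1971 to 2608 in the wild type, whereas 5 of the knockout libraries had 0 and the other had 1. The labelled cell type was checked on its markers: Wfs1 stood at 1272 ± 175 CPM and Camk2a, the kinase subunit abundant in pyramidal neurons, at 6207 ± 409 CPM in wild-type libraries (SD, n = 6), where CPM is the usual depth-scaled count, with library sizes adjusted by TMM normalization. Among Fmr1-/y libraries, replicate 1 stood apart from the others. Its share of reads on the ribosomal RNA gene Rn45s was 0.448%, against 1.20% to 3.78% in the other Fmr1-/y and 1.80% to 3.88% in the wild-type libraries, and the summed levels of the astrocyte, endothelial, choroid plexus, border macrophage and microglial marker lists were higher in it than in any other library. For the members and lists highest in this library, values without it are given as well.

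The C1q genes lie side by side on chromosome 4 (GRCm38), all on the minus strand: C1qb (Entrez 12260) from 136880126 to 136886200, C1qc (Entrez 12262) from 136889801 to 136892936 and C1qa (Entrez 12259) from 136895916 to 136898844. Cx3cr1 (Entrez 13051) spans chromosome 9 from 120048683 to 120068296, Tmem119 (Entrez 231633) chromosome 5 from 113793729 to 113800396, Trem2 (Entrez 83433) chromosome 17 from 48346401 to 48352276 and Aif1 (Entrez 11629) the same chromosome from 35170986 to 35176083. P2ry12 (Entrez 70839, chromosome 3 from 59216271 to 59262985) lies inside the span of Med12l on the other strand. The exons of both genes shared 0 bases, Med12l had a mean level of 57.1 CPM, and reads were counted by strand. Csf1r has Entrez identifier 12978.

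RefSeq promoter windows (build GRCm38.p6) were used here for 6 of the 9 genes, each of 250 bases before to 50 bases after an annotated start. Those of C1qb and C1qc, the neighbouring subunit genes, of P2ry12, the lowest of the 9 per length, and of Trem2, whose log2 fold change was the furthest from 0 of the 9, are printed 5′ to 3′ on the strand of the gene. Capitals mark AGGAAGT on either strand, a sequence with the core bound by ETS factors such as PU.1, the product of Spi1 and the lineage factor of macrophages.
C1qb (chr4:136886151-136886450, minus strand): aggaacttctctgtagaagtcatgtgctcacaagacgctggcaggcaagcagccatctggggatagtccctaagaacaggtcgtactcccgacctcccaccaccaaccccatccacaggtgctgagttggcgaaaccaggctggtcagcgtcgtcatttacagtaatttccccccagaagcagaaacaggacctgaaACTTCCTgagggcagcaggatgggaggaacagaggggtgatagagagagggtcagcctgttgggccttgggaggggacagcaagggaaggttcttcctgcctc
C1qc (chr4:136892865-136893164, minus strand): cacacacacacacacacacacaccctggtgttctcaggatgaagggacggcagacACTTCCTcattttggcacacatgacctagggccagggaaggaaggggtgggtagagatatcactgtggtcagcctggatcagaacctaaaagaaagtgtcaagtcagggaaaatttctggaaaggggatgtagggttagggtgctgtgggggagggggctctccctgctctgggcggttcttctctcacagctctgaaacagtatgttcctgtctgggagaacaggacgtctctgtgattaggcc
P2ry12 (chr3:59262936-59263235, minus strand): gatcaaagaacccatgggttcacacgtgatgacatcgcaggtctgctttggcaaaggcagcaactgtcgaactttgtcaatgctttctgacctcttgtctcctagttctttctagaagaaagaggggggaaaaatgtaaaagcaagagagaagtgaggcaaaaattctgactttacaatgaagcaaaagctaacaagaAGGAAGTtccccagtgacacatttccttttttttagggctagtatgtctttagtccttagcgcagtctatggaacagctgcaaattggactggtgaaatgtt
Trem2 (chr17:48346151-48346450, plus strand): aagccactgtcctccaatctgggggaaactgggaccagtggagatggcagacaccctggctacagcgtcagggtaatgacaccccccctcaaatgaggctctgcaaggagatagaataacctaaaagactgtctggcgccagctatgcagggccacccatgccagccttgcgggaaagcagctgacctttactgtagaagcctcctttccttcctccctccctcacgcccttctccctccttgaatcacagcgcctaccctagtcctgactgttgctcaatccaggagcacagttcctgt

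The heptamer was present once each in the windows of C1qb, C1qc and P2ry12 and was not found in those of Trem2, Cx3cr1 and Aif1. It occurred in 9.35% of the 32851 promoter windows of the table. In P2ry12 and C1qb it began 52 and 53 bases before the start, in C1qc 195 bases before it. A match of these letters is a description of the sequence only.

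Together the 9 mRNAs had between 4667 and 8528 reads per library, which was 0.0113% to 0.0162% of all reads on genes. The summed level was 127 ± 7.72 CPM in the wild type against 133 ± 14.0 CPM in the knockout (SD, n = 6 each), so that the genotypes differed by 5.75 CPM, less than the spread of either. Fmr1-/y replicate 1 was the highest at 157.4 CPM, and without it the genotypes differed by 0.859 CPM. The other 11 libraries lay between 116.9 and 138.8 CPM, with both genotypes spread over this range. In bulk pulldowns, the number of cells of a type, their RNA per cell and the amount of untagged RNA carried along cannot be told apart.

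Gene by gene, no microglial mRNA differed between the genotypes beyond the threshold. By the edgeR quasi-likelihood test, a Benjamini-Hochberg adjusted p under 0.05 was found for 0 of the 9, where 4 of all 17823 genes tested did (0.0224%), and DESeq2 also called 0 of the 9, against 0.571% of the genes to which it gave an adjusted p. At an unadjusted p under 0.05 edgeR gave 1 of the 9, Trem2, against 7.96% of all genes, and DESeq2 gave the same count, against 8.47%. The log2 fold change was above 0 for 7 genes and below 0 for 2, with a median of 0.05 beside 0.0042 over all genes tested, of which 51.4% were above 0. Without Fmr1-/y replicate 1 it was above 0 for 5 members and below 0 for 4, with a median of 0.00059 beside 0.0015 over all genes. The levels of the genotypes overlapped for all 9 genes on the TMM scale. Every Fmr1-/y library was above every wild-type library for 0.213% of all genes, and below for 0.41%.

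**Figure D1:**
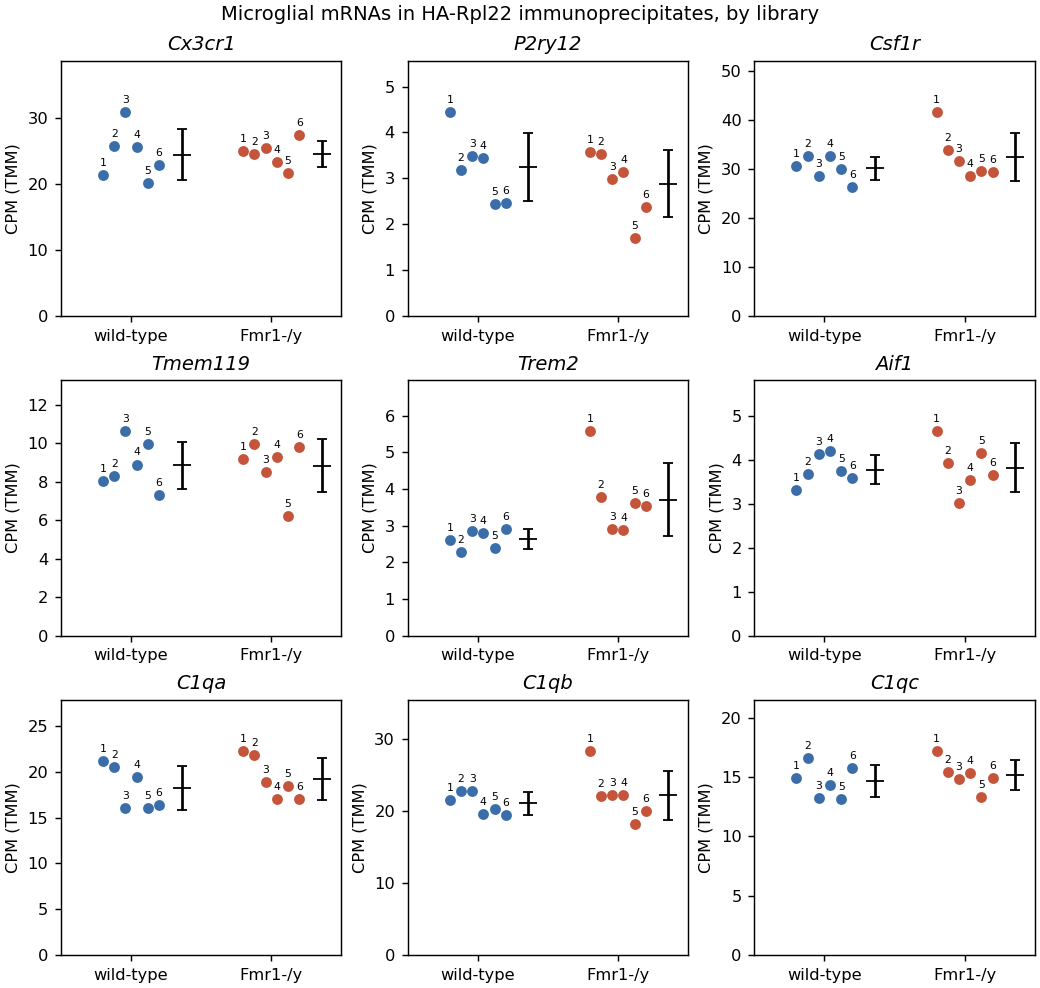
TMM-normalized CPM (y axes, from 0) of the 9 microglial mRNAs in each wild-type (blue) and Fmr1-/y (red) library, numbered by replicate, with mean and SD (n = 6 each) in black. Only for Trem2 do most Fmr1-/y libraries (4 of 6) lie above the highest wild-type library, and Fmr1-/y replicate 1 is the highest of its genotype for 7 of the 9 genes.

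Trem2 had the largest difference of the 9. Its lowest, median and highest wild-type libraries measured 2.28, 2.71 and 2.92 CPM, and the Fmr1-/y libraries 2.88, 3.57 and 5.57 CPM. All 6 Fmr1-/y libraries were above the wild-type median and 4 of them above every wild-type library, while replicates 3 and 4 lay inside the wild-type range. The mean was 141% of wild type (log2 fold change 0.49 ± 0.17 SE, 95% interval 0.14 to 0.85, edgeR unadjusted p = 0.00911 and adjusted p = 0.415). Without Fmr1-/y replicate 1, the library at 5.57 CPM, the log2 fold change was 0.34 and the edgeR adjusted p 0.754. With library totals in place of TMM the genotypes no longer overlapped for Trem2, at 2.27 to 2.89 CPM in wild-type and 2.99 to 5.74 in Fmr1-/y libraries, a separation seen on that scale, upwards, in 0.286% of all genes. Trem2 was also a low mRNA, with 94 to 302 reads per library, and counting error alone gave a coefficient of variation of 9.23% in wild-type libraries, where 10.1% was measured, and of 7.19% in Fmr1-/y libraries, where 26.5% was measured.

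The adaptor through which Trem2 signals, Tyrobp, measured 4.50, 5.35 and 6.11 CPM in the lowest, median and highest wild-type libraries and 5.02, 6.27 and 8.30 CPM in Fmr1-/y libraries. Its ranges overlapped widely, and it did not pass the test (log2 fold change 0.25 ± 0.13 SE, edgeR adjusted p = 0.694). Per length of exon, Tyrobp exceeded Trem2 in every library, by a median of 4.27 times in wild-type and 3.55 times in Fmr1-/y libraries. Apoe, a lipid carrier that Trem2 binds and that astrocytes make in bulk, was at 1277 ± 143 CPM in the wild type against 1602 ± 358 CPM in the knockout (SD, n = 6 each), with an edgeR adjusted p of 0.464. Its highest value, 2193 CPM, was again in an Fmr1-/y library, and the astrocyte markers summed to 815 to 992 CPM in the wild type against 924 to 1388 CPM in Fmr1-/y libraries. All 8 astrocyte markers had a log2 fold change above 0, against 51.4% of all genes. The log2 fold changes of Tyrobp and Apoe, 0.25 and 0.33 over all libraries, were 0.15 and 0.22 without Fmr1-/y replicate 1. What part these levels have in the value of Trem2 was not tested.

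Csf1r, the receptor for the survival factors Csf1 and Il34, was the member with the most reads, 1058 to 2255 per library. The wild-type libraries measured 26.4, 30.4 and 32.6 CPM (lowest, median, highest) and the Fmr1-/y libraries 28.6, 30.6 and 41.6 CPM. Apart from Fmr1-/y replicates 1 and 2 the values fell in the wild-type range (log2 fold change 0.11 ± 0.09 SE, 95% interval -0.09 to 0.30, edgeR adjusted p = 0.849). The log2 fold change of Csf1r was 0.021 without Fmr1-/y replicate 1. Its ligands are made largely by other cells. Il34, the neuronal ligand, stood at 36.1 ± 3.24 CPM in the wild type against 35.8 ± 3.41 CPM in the knockout (SD, n = 6 each; edgeR adjusted p = 0.988). Csf1 was lower, at 16.1 ± 2.13 and 16.2 ± 3.09 CPM (SD, n = 6 each; edgeR adjusted p = 0.999). Per kb of exon, Il34 exceeded Csf1r by a median of 3.07 times in wild-type and 3.06 times in Fmr1-/y libraries, and Csf1 was at 0.576 and 0.543 times the level of Csf1r.

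For Cx3cr1 the mean levels of the genotypes were nearly equal. The lowest, median and highest values were 20.2, 24.2 and 30.9 CPM in the wild type against 21.6, 24.7 and 27.4 CPM in Fmr1-/y libraries, with every Fmr1-/y library inside the wild-type range (log2 fold change 0.0051 ± 0.10 SE, 95% interval -0.20 to 0.21, edgeR adjusted p = 0.999). This interval corresponds to 0.869 to 1.16 times the wild-type level. Its ligand Cx3cl1, fractalkine, is made by neurons and was one of the abundant mRNAs of the pulldown, at 836 ± 85.7 CPM in the wild type against 808 ± 79.6 CPM in the knockout (SD, n = 6 each; log2 fold change -0.05, edgeR adjusted p = 0.937). Per kb of exon the ligand stood 31.3 to 58.8 times above its receptor in wild-type and 37.2 to 49.6 times above it in Fmr1-/y libraries. These ratios are of the pulldown and not of the tissue.

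Tmem119 and P2ry12 were the members whose log2 fold change was below 0. Tmem119 measured 7.32, 8.59 and 10.6 CPM (lowest, median, highest) in wild-type and 6.22, 9.23 and 9.97 CPM in Fmr1-/y libraries, where only replicate 5 fell below the wild-type range (log2 fold change -0.0037 ± 0.13 SE, 95% interval -0.27 to 0.26, edgeR adjusted p = 0.999). With library totals in place of TMM its log2 fold change was 0.018, on the other side of 0. P2ry12 measured 2.43, 3.32 and 4.44 CPM in the wild type against 1.70, 3.06 and 3.58 CPM in Fmr1-/y libraries. Fmr1-/y replicates 5 and 6 were below, and none was above, the wild-type range (log2 fold change -0.18 ± 0.20 SE, 95% interval -0.59 to 0.24, edgeR adjusted p = 0.899). Without replicate 1, the highest of the knockout, it was -0.25. Its interval was the widest of the 9 and reached from 0.663 to 1.18 times the wild-type level, which limits what can be said of this gene, with 96 to 239 reads per library.

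Aif1 was also low, with 134 to 272 reads per library. The wild-type libraries measured 3.31, 3.72 and 4.21 CPM (lowest, median, highest) and the Fmr1-/y libraries 3.02, 3.79 and 4.65 CPM. In the knockout, 1 library lay on each side of the wild-type range (log2 fold change 0.019 ± 0.13 SE, 95% interval -0.26 to 0.30, edgeR adjusted p = 0.990). Without Fmr1-/y replicate 1, the higher of these, the log2 fold change of Aif1 was -0.044.

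**Figure D2:**
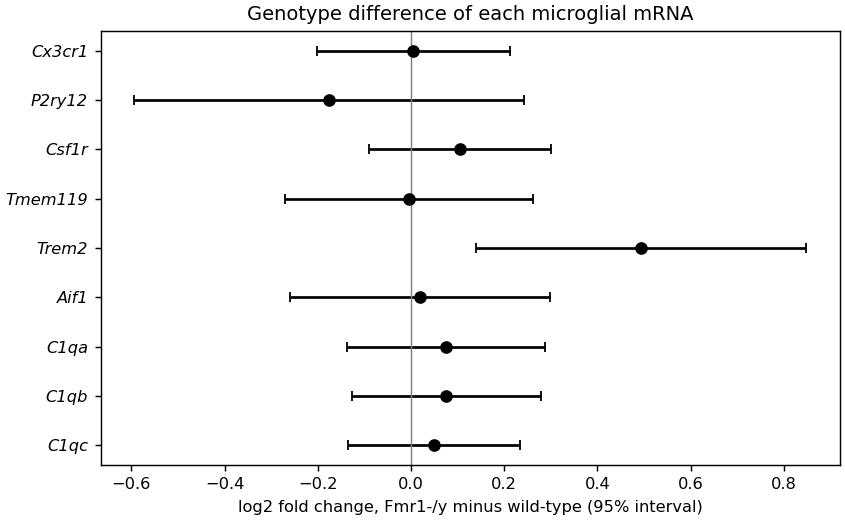
Log2 fold change of Fmr1-/y against wild-type (x axis) with its 95% interval for each microglial mRNA, from edgeR's fit to all genes (6 libraries per genotype). The intervals of 8 genes include 0, that of Trem2 runs from 0.14 to 0.85 before any adjustment for the number of genes, and P2ry12 has the widest.

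None of the 3 chains of C1q passed the test. C1qa measured 16.0, 17.9 and 21.2 CPM (lowest, median, highest) in wild-type and 17.0, 18.7 and 22.3 CPM in Fmr1-/y libraries (log2 fold change 0.07 ± 0.10 SE, edgeR adjusted p = 0.928). C1qb measured 19.5, 20.9 and 22.8 CPM in the wild type against 18.3, 22.2 and 28.4 CPM in Fmr1-/y libraries (log2 fold change 0.08 ± 0.10 SE, adjusted p = 0.920). The values of C1qc were 13.2, 14.7 and 16.6 CPM in the wild type against 13.3, 15.2 and 17.2 CPM in Fmr1-/y libraries (log2 fold change 0.05 ± 0.09 SE, adjusted p = 0.944). All genotype ranges overlapped, and the highest Fmr1-/y value of each chain came from replicate 1. Without that library the log2 fold changes of C1qa, C1qb and C1qc were 0.028, -0.0065 and 0.010. The 95% intervals of the 3 chains reached no further than from 0.909 to 1.22 times the wild-type level.

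The shares of the chains were close between the genotypes. Of the reads on the C1q genes, C1qb took a median of 37.9% in wild-type and 39.1% in Fmr1-/y libraries, C1qa 33.3% in both, and C1qc 26.8% and 26.6%. Over all libraries they ran from 30.8% to 36.8% for C1qa, 36.5% to 43.8% for C1qb and 25.3% to 30.5% for C1qc. In the complex, C1q acts with the proteases C1r and C1s. Their genes C1ra and C1s1 were lower than those of the chains, at 1.12 ± 0.442 and 1.47 ± 0.461 CPM in wild-type libraries and 1.32 ± 0.529 and 1.64 ± 0.562 CPM in the knockout (SD, n = 6 each). Per kb of exon, C1qa exceeded C1ra by a median of 48.2 times in wild-type and 38.0 times in Fmr1-/y libraries.

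Further down the classical pathway, 13 of 14 listed complement genes were found by symbol and tested, and edgeR called 0 of them. At an unadjusted p under 0.05, 4 complement genes had a higher mean in Fmr1-/y libraries and 0 a lower one, against 4.29% and 3.67% of all genes. These were C5ar1, the receptor of the anaphylatoxin C5a (log2 fold change 0.73 ± 0.28 SE, adjusted p = 0.499), Cd59a and Cd55, inhibitors that protect cells from complement (0.42 and 0.33, adjusted p = 0.476 and 0.544), and C4b, which is cleaved by the C1 complex (0.30, adjusted p = 0.531). C3, the central component, measured 5.76 ± 1.21 CPM in the wild type against 4.45 ± 1.26 CPM in the knockout (SD, n = 6 each; log2 fold change -0.37, edgeR adjusted p = 0.634). The median log2 fold change of the 13 was 0.24. Without Fmr1-/y replicate 1, where the list summed highest, the median was 0.08 and the counts were 0 higher and 1 lower, the latter C3 (log2 fold change -0.53, edgeR adjusted p = 0.598), against 3.12% and 3.23% of all genes in that fit. With and without that library, 11 of the 13 had a log2 fold change above 0, against 51.4% and 50.4% of all genes.

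Levels were compared between genes per kb of exon, the CPM divided by the length of the merged exons of the protein-coding transcripts. On this scale C1qb was the highest member, at 19.4 ± 1.42 CPM per kb in wild-type libraries, followed by C1qa at 17.6 ± 2.30 and C1qc at 12.2 ± 1.15 (SD, n = 6 each). C1qb and C1qa overlapped, and C1qb was the higher in 4 of 6 libraries of each genotype, whereas C1qa and C1qc did not overlap. Below them came Csf1r at 6.17 ± 0.490 and Cx3cr1 at 5.42 ± 0.857 CPM per kb (SD, n = 6 each). These receptors overlapped with each other and lay below the lowest library of C1qc. Tmem119 at 3.95 ± 0.553 and Aif1 at 3.75 ± 0.337 CPM per kb overlapped, and Trem2 at 2.31 ± 0.233 and P2ry12 at 1.33 ± 0.306 closed the order (SD, n = 6 each). In Fmr1-/y libraries the order was the same, but Aif1 and Trem2 overlapped there, at 3.79 ± 0.553 and 3.25 ± 0.862 CPM per kb (SD, n = 6 each), as they did not in wild-type libraries, and Cx3cr1 and Tmem119, which overlapped in wild-type libraries, did not.

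**Figure D3:**
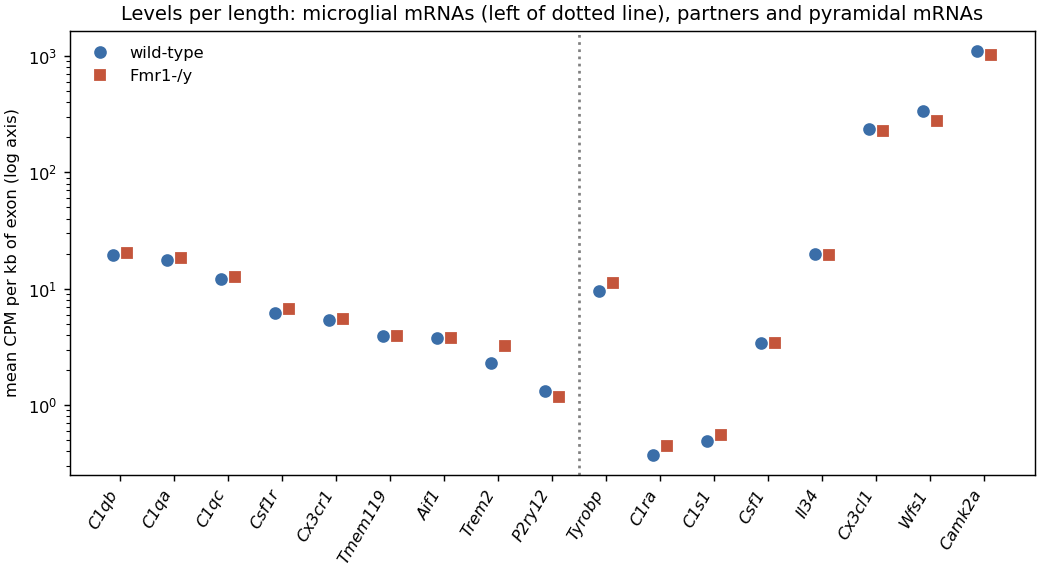
Mean level in CPM per kb of exon (log axis) in wild-type (circles) and Fmr1-/y (squares) libraries, for the microglial mRNAs in falling order, left of the dotted line, and for partner and pyramidal mRNAs right of it. The microglial mRNAs span 1.33 to 19.4 CPM per kb in wild-type libraries, under Cx3cl1 at 237, Wfs1 at 336 and Camk2a at 1097.

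The pyramidal markers were far above this range. Per kb of exon, Wfs1 stood at 37.2 to 62.0 times the level of Csf1r in wild-type and 29.7 to 51.4 times in Fmr1-/y libraries, and Camk2a at 52.4 to 62.3 and 36.9 to 62.9 times the level of C1qb. Wfs1, whose promoter drives the Cre recombinase, had a mean of 1054 ± 103 CPM in the knockout (SD, n = 6), with a log2 fold change of -0.27 and an adjusted p of 0.410 in edgeR. The 6 pyramidal markers summed to 8095 to 10058 CPM in the wild type against 7862 to 9311 CPM in Fmr1-/y libraries. All 6 had a log2 fold change below 0, with a median of -0.10, and none passed the test. Over all genes tested, 51.4% were above 0. At an unadjusted edgeR p under 0.05, 1 of the 6 was lower, against 3.67% of all genes. This was Wfs1 (edgeR unadjusted p = 0.00827). Without Fmr1-/y replicate 1 the count was the same, against 3.23% of all genes, and the log2 fold change of Wfs1 was -0.24.

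Between libraries of 1 genotype the microglial mRNAs varied about as much as other genes of their level. The median coefficient of variation of the 9 was 10.1% in wild-type and 15.03% in Fmr1-/y libraries, beside 12.8% and 15.2% over the 6441 and 6445 genes whose mean lay between 2.64 and 32.4 CPM. P2ry12 was the most variable in wild-type libraries, at 23.0%, and Trem2 in Fmr1-/y libraries, at 26.5%, followed there by P2ry12 at 25.2%. Cx3cr1 varied by 15.8% in wild-type and 8.04% in Fmr1-/y libraries, where counting error alone gave 3.03% and 2.83%. Fmr1-/y replicate 1 was the highest of its genotype for 7 of the 9 genes, the others being Tmem119 (replicate 2) and Cx3cr1 (replicate 6). Fmr1-/y replicate 5 was the lowest for 5 genes. Among wild-type libraries the highest values were scattered over 5 of the 6 replicates.

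A wider list of 30 microglial genes, 29 of which were found by symbol and tested, was tested as well. Their summed level was 176 to 218 CPM in the wild type against 192 to 251 CPM in Fmr1-/y libraries, the highest again in replicate 1. In edgeR 0 of the 29 passed, with 23 log2 fold changes above and 6 below 0 and a median of 0.09. At an unadjusted p under 0.05, 3 had a higher and 0 a lower mean in Fmr1-/y libraries, where 4.29% and 3.67% of all genes did and 51.4% of all genes had a log2 fold change above 0. Without replicate 1 these counts were 2 and 0, against 3.12% and 3.23% of all genes in that fit. The median was then 0.05, with 22 log2 fold changes above and 7 below 0, where 50.4% of all genes were above 0. Ltc4s, a leukotriene synthase, measured 5.80 ± 1.58 CPM in the wild type against 9.89 ± 2.42 CPM in the knockout (SD, n = 6 each; log2 fold change 0.77 ± 0.18 SE, edgeR adjusted p = 0.215). It passed in DESeq2 (adjusted p = 0.0125), as did 0.571% of all genes with an adjusted p. The study reported Ltc4s from these counts with DESeq2, so this call is not separate support. Fcrls, an Fc receptor-like gene of microglia, stood at 8.92 ± 1.19 CPM in the wild type against 10.9 ± 1.30 CPM in the knockout (SD, n = 6 each, log2 fold change 0.29 ± 0.11 SE, edgeR adjusted p = 0.499). Spi1, the gene of PU.1, was the third, with 1.48 ± 0.250 CPM in the wild type against 1.98 ± 0.417 CPM in the knockout (SD, n = 6 each; log2 fold change 0.42, edgeR adjusted p = 0.621). Of the 8 listed transcription factors and TGF-beta signals of microglia, Spi1 included, edgeR called 0.

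Genes that microglia raise around plaques and injury were tested as a separate list of 12, and 0 passed in edgeR. At an unadjusted p under 0.05, 3 had a higher and 1 a lower mean, against 4.29% and 3.67% of all genes. The list summed highest in Fmr1-/y replicate 1, at 1123 CPM against a knockout median of 799.8 CPM. Without that library the counts were 2 and 1, against 3.12% and 3.23% of all genes in that fit. The median log2 fold change was then 0.14 in place of 0.28. In both fits 10 log2 fold changes were above and 2 below 0, where 51.4% and, without that library, 50.4% of all genes were above 0. Ctsd, a lysosomal protease made in most cells, had a log2 fold change of 0.28 (± 0.09 SE, edgeR adjusted p = 0.365). Cd63 and Cd9, tetraspanins found on many cells and named here after their values were seen, had log2 fold changes of 0.40 and 0.36 (edgeR adjusted p = 0.410 and 0.493). Lpl, lipoprotein lipase, had the lower mean, at 131 ± 9.51 CPM in the wild type against 108 ± 10.1 CPM in the knockout (SD, n = 6 each; log2 fold change -0.27 ± 0.07 SE, edgeR adjusted p = 0.259). Per kb of exon, Lpl at 31.7 CPM in the wild type was above each of the 9 microglial mRNAs. Cst7, Itgax and Clec7a mark activated myeloid cells and were also named after their values were seen. Their means were 0.0679 ± 0.0974, 0.471 ± 0.219 and 0.376 ± 0.133 CPM in the wild type (SD, n = 6). In Fmr1-/y libraries they were 0.110 ± 0.150, 0.638 ± 0.304 and 0.406 ± 0.151 CPM (SD, n = 6). The remaining genes of the list stood higher. Axl, Lgals3, Spp1, Gpnmb and Ccl6 had wild-type means of 27.1, 8.08, 6.38, 2.81 and 1.27 CPM. Their Fmr1-/y means were 29.4, 8.98, 8.66, 2.78 and 1.54 CPM, with edgeR adjusted p from 0.663 to 0.994.

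Signals by which neurons restrain microglia were also measured, as a list of 5, and edgeR called 0 of them. At an unadjusted edgeR p under 0.05, 0 were higher and 1, Cd47, was lower, against 4.29% and 3.67% of all genes. Without Fmr1-/y replicate 1 these counts were the same, against 3.12% and 3.23% of all genes. Cd200, a surface ligand of neurons, stood at 90.1 ± 11.3 CPM in the wild type against 90.7 ± 14.5 CPM in the knockout (SD, n = 6 each; edgeR adjusted p = 0.993). Its receptor Cd200r1, found on myeloid cells, was near 0. It measured 0.144 ± 0.129 CPM in the wild type and 0.289 ± 0.210 CPM in the knockout (SD, n = 6 each, edgeR adjusted p = 0.828). The lowest library of each genotype had 0 CPM. Cd47, the signal against engulfment, measured 26.5 ± 3.47 CPM in the wild type against 22.9 ± 1.60 CPM in the knockout (SD, n = 6 each; log2 fold change -0.21 ± 0.09 SE, edgeR adjusted p = 0.553). Sirpa, the receptor of Cd47, which neurons express as well, was at 432.5 CPM in both genotypes. Cd22, the remaining gene of the list, was at 0.583 ± 0.197 CPM in the wild type and 0.478 ± 0.210 CPM in the knockout (SD, n = 6 each, edgeR adjusted p = 0.923).

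Markers of other cells that a hippocampal lysate holds moved between libraries too. Border macrophage markers summed to 25.6 to 35.6 CPM in the wild type against 24.0 to 45.7 CPM in Fmr1-/y libraries, with 7 of 8 log2 fold changes above 0 and a median of 0.10. Blood leukocyte markers came to 10.3 to 37.8 and 15.7 to 34.9 CPM, and the T cell marker Cd3e was near 0, at 0.167 CPM in wild-type libraries. Endothelial and mural markers had 10 of 10 log2 fold changes above 0 with a median of 0.36 and sums of 133 to 204 CPM in the wild type against 167 to 276 CPM in Fmr1-/y libraries. Choroid plexus markers had 4 of 4 above 0 with a median of 0.40. Their sums ran from 6347 to 11818 CPM in wild-type and from 8267 to 17421 CPM in Fmr1-/y libraries. Oligodendrocyte markers had 1 of 8 above 0 and a median of -0.18. Over all genes tested, 51.4% were above 0. At an unadjusted edgeR p under 0.05, 5 of 8 astrocyte and 5 of 10 endothelial and mural markers were higher in Fmr1-/y libraries. So were 2 of 4 choroid plexus and 1 of 8 border macrophage markers, against 4.29% of all genes. Of these lists 0 markers were lower, while 1 of 8 oligodendrocyte markers was, against 3.67% of all genes. In edgeR 0 genes of these lists passed, and DESeq2 called the endothelial gene Esam and the astrocyte gene Slc7a10 (adjusted p = 0.0220 and 0.0390). Over all genes with an adjusted p, DESeq2 called 0.571%. Both calls come from the counts and the tool of the study, which also reported Esam, so neither is separate support. Slc7a10 was the only gene of these lists with every Fmr1-/y library above every wild-type library, as in 0.213% of all genes. The astrocyte list had a median of 0.22 and the microglial members 0.05. Without Fmr1-/y replicate 1 the medians were 0.16 for astrocyte, 0.28 for endothelial and mural, 0.26 for choroid plexus and -0.0012 for border macrophage markers, the last with 4 of 8 above 0. All astrocyte, endothelial and choroid plexus markers stayed above 0 in that fit, where 50.4% of all genes were above 0. There 3 astrocyte, 4 endothelial and mural, 1 choroid plexus and 1 border macrophage marker were higher at an unadjusted edgeR p under 0.05. That share was 3.12% over all genes. Of the oligodendrocyte markers 1 was lower, against 3.23% of all genes. Whether these levels contribute to the values of the microglial mRNAs was not tested.

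**Figure D4:**
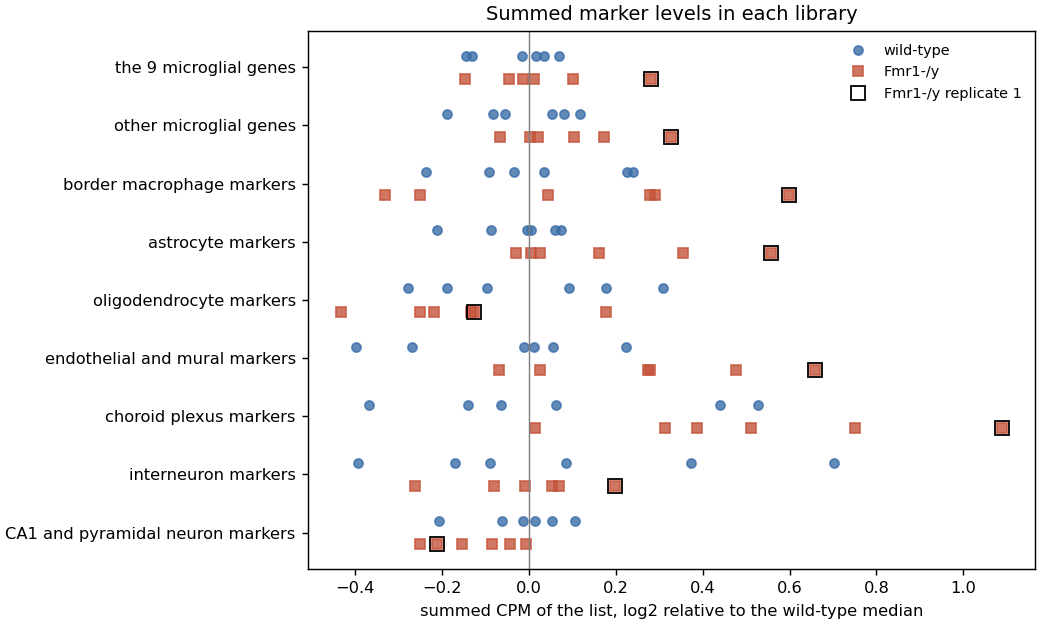
Summed CPM of each marker list in every library, as log2 relative to the median of the wild-type libraries (x axis), for wild-type (circles) and Fmr1-/y (squares), with Fmr1-/y replicate 1 boxed. Replicate 1 lies 0.28 above the wild-type median for the 9 microglial genes, 0.56 for astrocyte and 1.09 for choroid plexus markers, and -0.21 for pyramidal markers.

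The genes whose pattern over the libraries was most like that of the 9 were sought among 15929 other genes with at least 100 reads in total, by the correlation with the mean log2 CPM of the 9 over 12 libraries after the mean of each genotype had been subtracted. The closest were 6330416G13Rik (r = 0.95), Hepacam (r = 0.93), which encodes an astrocyte adhesion protein, Notch3 (r = 0.91), a receptor of mural cells, Psen2 (r = 0.91) and Nadk2 (r = 0.91), with Spearman's rho of 0.930, 0.909, 0.895, 0.818 and 0.902. None of these belongs to the microglial lists. Within wild-type libraries the r of these 5 genes, in the same order, was 0.84, 0.86, 0.74, 0.92 and 0.74. Within Fmr1-/y libraries it was 0.98, 0.95, 0.99, 0.91 and 0.95. The search was not repeated without Fmr1-/y replicate 1. Among the 29 other microglial genes the median r was 0.40, beside 0.02 over all genes searched, and Fcer1g, Selplg and Ctss were the closest, each with r = 0.84. Each of the 9 correlated with the mean of the other members at r between 0.32 (Cx3cr1) and 0.80 (C1qb). These values describe the same 12 libraries, were picked from many genes, and are given without a test.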

How the data were processed

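RNA from HA pulldowns of 6 wild-type and 6 Fmr1-/y pools was analysed. Per the study's methods, the authors sequenced stranded libraries of polyadenylated RNA with single-end reads, aligned them with TopHat 2.1.1 (Bowtie 2.2.8) to mm10 with UCSC gene models, counted strand-specifically with HTSeq 0.6.1p1 in union mode, and deposited raw counts for 24079 genes. Replicates are separate pools.

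Here, genes with at least 15 reads in total (17823) were kept, the filter of the study, and tested with edgeR 4.0.16 (quasi-likelihood test on genotype alone, TMM) under R 4.3.3. p-values were adjusted over all genes by Benjamini-Hochberg, with a threshold of 0.05. The study used DESeq2, which was run here (1.42.0) as an alternative, as were limma 3.58.1 voom, other scalings and filters, a robust fit, the replicate number as a block, and each library left out. Standard errors are the log2 fold change divided by the square root of F, and 95% intervals use the moderated degrees of freedom and are not adjusted for the number of genes. The scripts were tested on simulated counts. Exon lengths are from GENCODE M21 (GRCm38, the build of mm10), coordinates from RefSeq by Entrez identifier. Log2 CPM for the likeness search used a prior count of 2.

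The named genes are the 9 members, the listed partners, the genes with the smallest p in 2 further microglial lists, and the 5 genes most like the members. A few others were named after their values were seen. The members and lists were chosen with earlier results of these data known. The lists share 6 genes among themselves. Listed globin genes had 0 reads in all libraries and were not used. Alas2, the red blood cell marker that was tested, stood at 8.45 CPM in the wild type against 8.51 CPM in the knockout.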

Additional observations from a re-analysis of the deposited data

Results flagged for a closer look

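In each genotype the 6 values of the 9 genes and of their sum were examined for 1 library lying apart, by its gap to the nearest value as a share of the range. Of 20 groups, 1 exceeded Dixon's critical value, and chance flags about 1 in 20. In Fmr1-/y libraries Trem2 had a ratio of 0.663, with replicate 1 at 5.57 CPM and the others between 2.88 and 3.79 CPM. The same library had the highest summed astrocyte, endothelial, choroid plexus and microglial markers of all 12.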

How the results depend on the processing

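The count of members past the threshold was 0, and the count with an unadjusted p under 0.05 was 1, under each of the 20 alternatives. Over the alternatives the adjusted p of Trem2 ranged from 0.214 (DESeq2) to 0.754 (without Fmr1-/y replicate 1), with log2 fold changes from 0.34 to 0.56 that stayed above 0. The adjusted p of the other 8 members ranged upwards from 0.681. Of 180 combinations of a member and an alternative, 166 kept the direction, 14 turned it, and 0 gained the threshold. All turns were around 0: with a library left out, the log2 fold change ran from -0.044 to 0.084 for Cx3cr1, from -0.052 to 0.081 for Tmem119, from -0.0065 to 0.13 for C1qb and from -0.044 to 0.078 for Aif1, and that of Tmem119 was 0.018 with library totals. The difference in summed CPM ran from 0.859 (without Fmr1-/y replicate 1) to 8.96 CPM with a library left out, and moved by less than 1 SD in every alternative run. Over all genes, 4 passed in edgeR, 84 in DESeq2, 1 with at least 10 reads in every library, and 2 to 6 with a library left out; the cause was not tested. The lists without Fmr1-/y replicate 1 were fitted after seeing the data.

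The genotypes share replicate numbers, but with group means subtracted, libraries of the same number correlated between -0.081 and 0.090 over all genes and between -0.24 and 0.35 over genes with a mean log2 CPM above 1. Not every pair was above 0.1 on either set, so the numbers were not taken as pairs. The labels do not say whether pools of the same number share a litter or day, so pairing is unknown. With the replicate block 0 members and 4 genes in all passed, and Trem2 had a log2 fold change of 0.47 and an adjusted p of 0.461. P2ry12, Trem2 and Aif1 had the fewest reads of the 9.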
